A study of Mus musculus with 6 samples.

Results

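Desmosomes are adhesive junctions that tie the keratin filaments of neighbouring epithelial cells together. Desmosomal cadherins (desmogleins and desmocollins) span the membrane, the armadillo proteins plakoglobin and the plakophilins bind their tails, and the plakin desmoplakin links this plaque to keratin. Loss of such contacts is a known part of the epithelial-mesenchymal transition, which TGF-β induces in mammary epithelial cells. The genes described here are the 10 desmosome genes Dsp, Dsg2, Dsc2, Pkp1, Pkp2, Pkp3, Jup, Perp, Ppl and Evpl, and all 10 were among the 18512 entries of the count table. They were chosen by name as parts of this junction and on the measured values of Dsp, whose count fell with TGF-β and partly came back with 2APB. The values of Dsp are therefore a description without a test, and the question put to the other 9 genes was whether they followed it.

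The data were read counts per gene from NMuMG, an epithelial line of mouse mammary gland, serum-starved before treatment. The 3 groups were DMSO (vehicle), 5 ng/ml TGF-β, and both agents (TGF-β+2APB), where 50 uM 2APB joined the same dose of TGF-β. 2APB is a modulator of store-operated calcium entry, and each group had 2 biological replicates of the 1 cell line. Treatment is described as 24 h, although 2APB is also said to have been given for that time ahead of TGF-β, and a group with 2APB alone was not analysed here. A change on addition of 2APB is therefore a change in cells that also received TGF-β.

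Total counts per library ran from 71840570 to 79473182, and 13355 entries averaging 20 or more normalized counts were tested with edgeR's quasi-likelihood test, in which a Benjamini-Hochberg FDR of 0.05 or less was called. Of the 10 genes 9 reached this minimum, Dsc2 being the exception, so that 8 genes besides Dsp were tested. Of the 7 markers fixed for luminal mammary epithelium 6 were read. Their summed level was 7119 to 17475 CPM (counts scaled to library total), of which Krt8 and Krt18 held most. Epcam had 52 to 158 counts per library and Cldn7 2 to 6. Of the 5 luminal markers tested, 2 were called higher with TGF-β (21.8% of all entries tested), Krt8 and Krt18. The other 3 were called lower (19.7% of all entries), Krt19, Epcam (log2 fold change -1.42, edgeR FDR 0.0141) and Cdh1. The 6 basal markers summed to 0.306 to 0.469 CPM in DMSO and 0.717 to 1.61 CPM in the treated libraries, with Krt5 and Krt14 at 4 counts or fewer in any library. Acta2, the only basal marker with enough counts, had 20 and 10 counts in DMSO, 110 and 46 under TGF-β and 92 and 88 under both agents, and was called higher with TGF-β (log2 fold change 2.36, SE 0.53, edgeR FDR 0.0169), though not without either DMSO replicate.
Markers of other cell types moved with some of the groups. The 8 hepatocyte markers summed to 1811 and 1712 CPM in the DMSO replicates, 264 and 196 under TGF-β and 110 and 149 under both agents, and none of the 8 was at or below 3 counts in DMSO. All 7 with enough counts were called lower with TGF-β, as were 19.7% of all entries tested. Of 8 salivary gland markers 7 were at or below 3 counts in both DMSO replicates and in replicate 1 of TGF-β, where the list summed to at most 0.724 CPM. In replicate 2 of TGF-β and the replicates of TGF-β+2APB it summed to 37.7, 88.2 and 141 CPM. The 5 immune markers summed to 399 CPM in replicate 2 of TGF-β+2APB and to 5.76 to 56.0 CPM elsewhere, with Cd3e at 0 to 2 counts. The 4 fibroblast markers read summed to 1.88 and 2.20 CPM in DMSO and 22.2 to 31.1 CPM in the treated libraries. Col1a1 held most of the treated sums, while Dcn had at most 4 counts and Col3a1 4 to 12 in any library. Pdgfra was called higher on addition of 2APB (edgeR FDR 0.00904). The 6 keratinocyte markers summed to 26.8 and 28.6 CPM in DMSO and 83.7 to 117 CPM in the treated libraries, mostly Ivl. Lor rose from 18 and 20 counts in DMSO to 106 and 82 under TGF-β. Krt10 was not called with TGF-β (edgeR FDR 0.669), and Krt1, Dsg1a and Dsc1 had at most 8 counts.

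In DMSO the 10 genes differed widely in level. Per length of the longest transcript, Jup stood highest at 100.6 ± 2.47 CPM per kb (SD, n = 2), followed by Dsp at 96.2 ± 0.589 (SD, n = 2) and Dsg2 at 86.8 ± 2.49 (SD, n = 2). Ppl had 58.5 ± 1.62, Pkp2 22.1 ± 0.620 and Perp 13.6 ± 0.282 CPM per kb (SD, n = 2 each), and the replicates of these 6 genes did not overlap. This order depends on the length used. With coding length the replicates of Jup and Dsg2 overlapped. With no length correction Dsp stood highest, at 926 and 918 CPM in the DMSO replicates against 328 and 317 CPM for Jup. The remaining 4 genes had very few counts. Evpl had 0.149 ± 0.0139 and Pkp3 0.132 ± 0.0656 CPM per kb, and Dsc2 0.0325 ± 0.0221 and Pkp1 0.0261 ± 0.00529 (SD, n = 2 each), and within both pairs the replicates overlapped.

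Dsp encodes desmoplakin, the plakin that anchors keratin to the plaque. It occupies bases 38151294 to 38198577 of chromosome 13 (plus strand, build GRCm38, as for all positions here). Its normalized count was 69899 and 68188 in the vehicle libraries, 34949.8 and 33761 under TGF-β, and 45163 and 42469 under both agents. Both treated groups thus lay below DMSO, and both replicates with 2APB lay above both with TGF-β alone. In bulk libraries fewer cells with a transcript and less of it per cell cannot be told apart. The log2 fold change was -1.01 (SE 0.07) from DMSO to TGF-β and 0.35 (SE 0.07) on addition of 2APB, which left its log2 fold change against DMSO at -0.66 (SE 0.07). The second step undid 34.8% of the first on the log2 scale, and between 28.0% and 39.9% when each library was left out in turn, the lowest without replicate 1 of TGF-β+2APB. Along 499 bases its exons overlap those of Gm10129 on the opposite strand, and since no strand setting is given, reads of the pair could not be told apart.

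**Figure D1:**
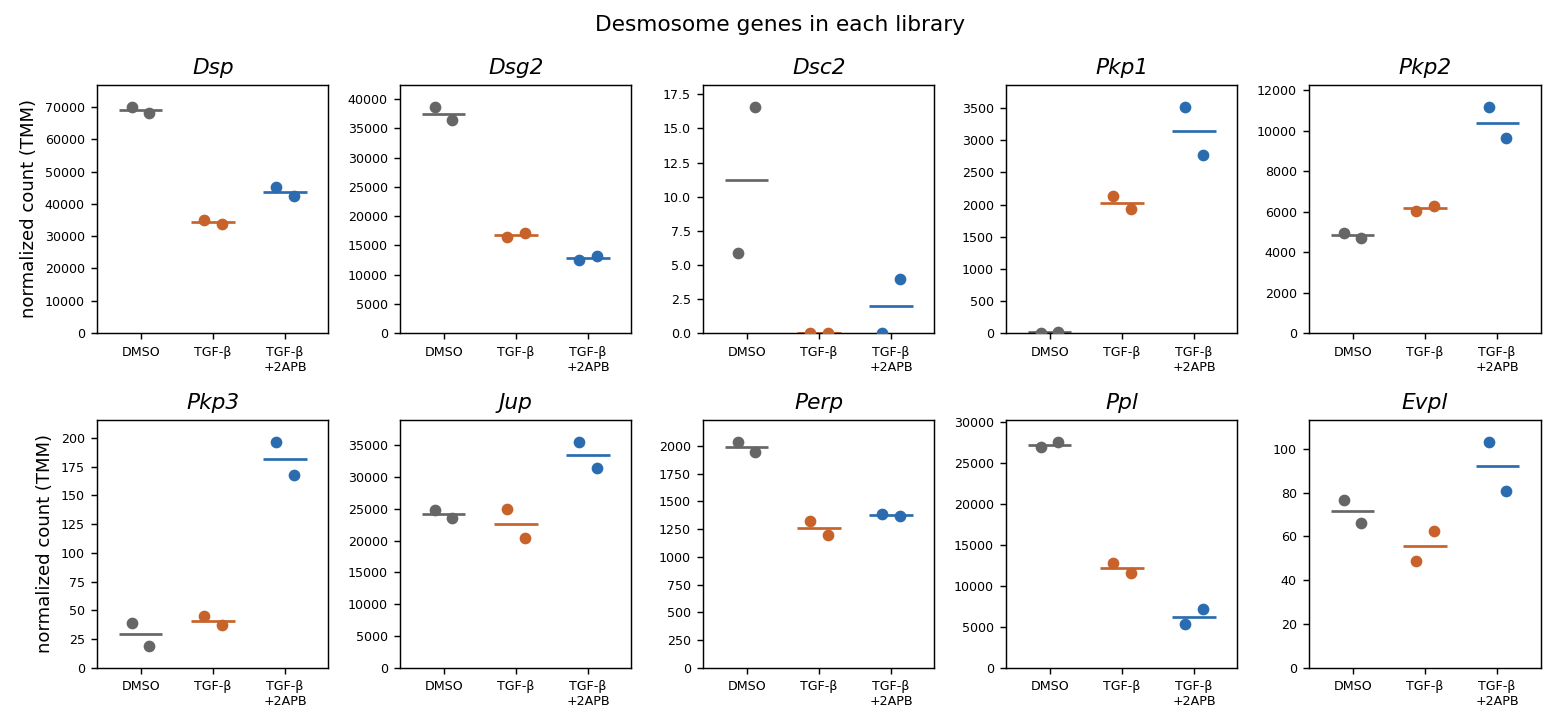
Normalized counts (TMM scaling, linear axes from 0, a separate scale for each gene) of the 10 desmosome genes in DMSO, TGF-β and TGF-β+2APB. Points are the 2 replicates of a group and lines their mean. Among the 10 genes, only for Dsp, Perp and Evpl do both TGF-β points lie under every point of the other groups. Dsp was chosen by these values and was not tested. For Perp the first step was called and the second was not (edgeR FDR 0.00245 and 0.334). For Evpl neither step was called (edgeR FDR 0.370 and 0.150). The share of all entries whose points lie this way is not given, so the picture is a description only.

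The RefSeq promoter table (GRCm38.p6, 250 bases before to 50 after the start) held 2 of the 10 genes, Dsp and Jup. They were searched for the E-box CACCTG, the motif bound by SNAI1, a repressor of epithelial genes, on both strands (CAGGTG on the other). It was found once in Dsp and not in Jup, and 20.2% of all 32851 promoters in the table hold it. The match in Dsp begins 4 bases into the transcript (counting the start as 1) and is shown, with the motif in capitals, because Dsp is the gene whose fall and return chose the list. A match of these letters is a description of the sequence and was not tested for binding.
Dsp, chr13:38151285-38151314, plus strand: gaagaagccgacCAGGTGtggcctgggcgc

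None of the other genes was called in both steps in the directions of Dsp. A fall after TGF-β followed by a rise with 2APB was called for 0 of the 8 by edgeR, for 0 by DESeq2, and for 0 when both unadjusted p-values had only to be under 0.05. Over all entries tested 0.869% had it. With TGF-β against DMSO 3 of the 8 were called lower (19.7% of all entries tested) and 2 higher (21.8%), with a median log2 fold change of -0.23 against -0.01 over all entries. On addition of 2APB 2 were called lower (10.9% of all entries) and 4 higher (6.58%), with a median of 0.60 against -0.00355. With TGF-β+2APB against DMSO 3 were lower (27.2%) and 4 higher (25.6%), with a median of 0.42 against -0.00321. These comparisons share libraries, and the genes were listed with results of these data known, so the counts describe the list and do not test it.
DMSO libraries enter the comparison on addition of 2APB through the estimate of spread that the 3 groups share. They also enter through the filter on the mean count, which left 13151 entries in the fit of the 4 libraries compared. The changes in that comparison moved little with them. Without either DMSO replicate the log2 fold changes on addition of 2APB stayed at 0.63 for Pkp1, 0.56 for Jup and -0.39 for Dsg2. Over all entries, 2335 were called in this comparison with all libraries and 860 with only the 4 compared. The 6 calls on addition of 2APB changed in number with the libraries in the fit. They became 3 without replicate 1 of DMSO, 2 without replicate 2 of DMSO and 2 without replicate 1 of TGF-β+2APB, and 3 in a fit of only the 4 libraries compared.
The part of the markers of other cell types in the results was not tested, and in the direct comparison salivary markers cannot be told apart from the group, since both TGF-β+2APB libraries held them. Without replicate 2 of TGF-β the calls with TGF-β stayed at 2 higher and 3 lower of the 8 genes, and without replicate 2 of TGF-β+2APB those on addition of 2APB were 3 higher and 1 lower. The step of Dsp on addition of 2APB was 0.33 and 0.39 on the log2 scale without these libraries in turn. Pkp1 had normalized counts of 2128 and 1931 in replicates 1 and 2 of TGF-β, and its relation to the salivary markers was not tested.

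**Figure D2:**
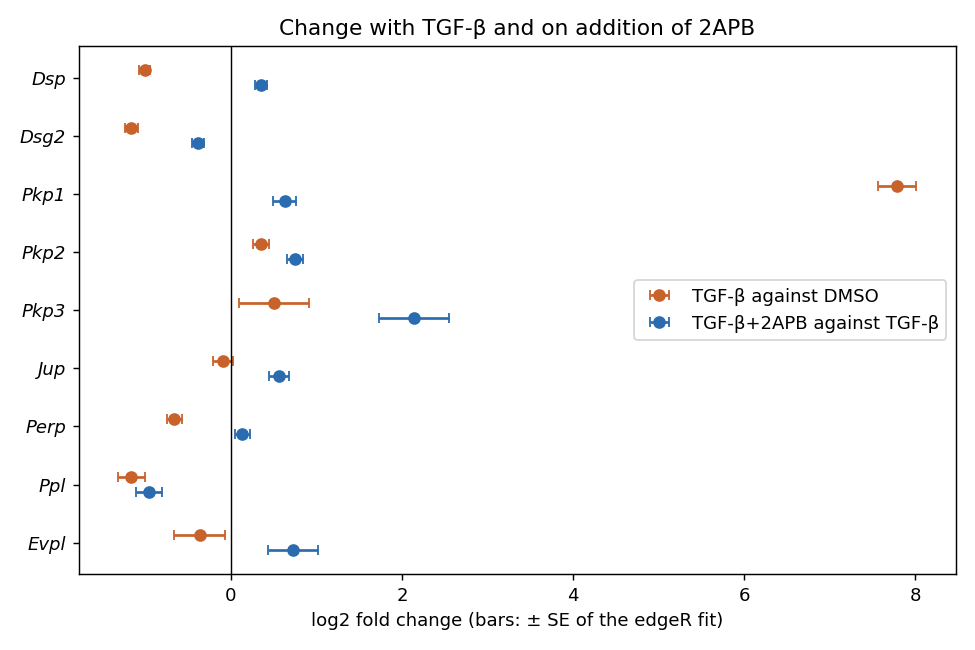
Log2 fold changes of the 9 genes with enough counts, from DMSO to TGF-β and from TGF-β to TGF-β+2APB. Points are fitted values and bars their SE. Dsp, Jup, Perp and Evpl lie below 0 in the first step and above 0 in the second (only the second step of Jup and the first of Perp were called, and Dsp was not tested), Dsg2 and Ppl lie below 0 in both, and Pkp1 rises by 7.79 in the first step.

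Among the desmosomal cadherins, Dsg2, the desmoglein of simple epithelia, fell at each step. Its gene occupies bases 20558074 to 20604521 of chromosome 18. Normalized counts of Dsg2 were 38554 and 36432 in the vehicle libraries, 16465 and 17049 under TGF-β, and 12436 and 13211 under both agents, and no groups overlapped. The log2 fold change was -1.16 with TGF-β (SE 0.07, edgeR FDR 0.000202, called under all 13 alternatives run). This fall was close in size to that of Dsp. Where Dsp rose, with 2APB added, Dsg2 fell again, with a log2 value of -0.39 (SE 0.07, edgeR FDR 0.0202). That call was lost in 6 of the 13 alternatives, with the FDR between 6.49e-06 and 0.138. Among these it was 0.0800 and 0.0809 without either DMSO replicate, 0.138 and 0.0884 without either TGF-β+2APB replicate, and 0.0821 in the fit of the 4 libraries compared. Exons of Gm16090 overlap Dsg2 over 330 bases on the opposite strand.
Dsc2, the partner desmocollin, had raw counts of 6 and 16 in the vehicle libraries, 0 and 0 under TGF-β, and 0 and 4 under both agents. A count of 0 allows up to 3 counts at this depth, or more if the deposited counts were doubled, and Dsc2 was not tested. Other desmosomal cadherins gave little more. Dsg1c, a desmoglein of stratified epithelia, had 110 and 106 counts in the vehicle libraries, 0 and 2 under TGF-β, and 0 and 0 under both agents, and its reads could be shared with the near-identical Dsg1a and Dsg1b. No library had more than 20 counts for Dsg1a, Dsg1b, Dsg3, Dsg4 or Dsc1. Dsg2 thus held 99.5% of the cadherin counts per kb in vehicle, 99.8% under TGF-β and 99.9% under both agents, so that the summed cadherin level followed Dsg2, from 89.0 and 85.6 CPM per kb in the DMSO replicates to 36.9 and 39.3 under TGF-β and 27.4 and 29.5 under both agents.

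Of the armadillo proteins, Jup encodes plakoglobin, which binds the cadherin tails in desmosomes and also in adherens junctions. It occupies bases 100368958 to 100397763 of chromosome 11 (minus strand). Jup had normalized counts of 24749.8 and 23522 in the vehicle libraries, 24901 and 20458 under TGF-β, and 35478 and 31471 under both agents. The DMSO and TGF-β groups overlapped, and both replicates with 2APB lay above all others. The log2 fold change of Jup with TGF-β was -0.09 (SE 0.12, edgeR FDR 0.576). With 2APB added it was 0.56 (SE 0.12, edgeR FDR 0.0286), and against DMSO 0.47 (SE 0.12, edgeR FDR 0.0182). The rise on addition of 2APB was not called in 5 of the 13 alternatives. Its edgeR FDR was 0.0837 and 0.0844 without replicate 1 or 2 of DMSO, 0.194 and 0.0720 without replicate 1 or 2 of TGF-β+2APB, and 0.0806 with the 4 libraries alone. The call against DMSO was lost without either DMSO replicate (edgeR FDR 0.0814 and 0.117) and without replicate 1 of TGF-β+2APB (0.127).

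Of the plakophilins, which cluster the other plaque proteins, Pkp1 and Pkp2 were called higher in both steps, Pkp3 was called higher with 2APB added, and their relative Pkp4 was called lower in both. Pkp1, a plakophilin best known from the upper layers of stratified epithelia, occupies bases 135871395 to 135919207 of chromosome 1 (minus strand). Pkp1 had raw counts of 8 and 10 in the vehicle libraries, 2184 and 1860 under TGF-β, and 3544 and 2812 under both agents, so that all treated libraries stood far above DMSO. With TGF-β Pkp1 stood 221-fold higher, or by 7.79 on the log2 scale (SE 0.22, edgeR FDR 3.05e-05, called in all 13 alternatives). With 2APB present Pkp1 was higher again, by 0.63 (SE 0.14, edgeR FDR 0.0312). This second call was lost without replicate 1 or 2 of DMSO (FDR 0.0794 and 0.0800), without replicate 1 of TGF-β+2APB (0.198), and with the 4 libraries alone (0.0757).
Pkp2, the plakophilin of simple epithelia and heart, occupies bases 16213318 to 16272712 of chromosome 16 (plus strand). Normalized counts of Pkp2 were 4962 and 4693 in the vehicle libraries, 6054 and 6293 under TGF-β, and 11153 and 9629.7 under both agents, each group above the one before without overlap. It rose by a log2 fold change of 0.35 with TGF-β (SE 0.10, edgeR FDR 0.0299, but 0.128 and 0.194 without replicate 1 or 2 of DMSO). The rise of Pkp2 with 2APB added was 0.75 (SE 0.10, edgeR FDR 0.00797), and it was called in all 13 alternatives, as was the rise against DMSO of 1.11 (SE 0.10, edgeR FDR 0.000364).
Pkp3, a plakophilin found in most desmosomes, occupies bases 141078218 to 141090510 of chromosome 7 (plus strand) and had few counts. It had raw counts of 40 and 18 in the vehicle libraries, 46 and 36 under TGF-β, and 198 and 170 under both agents. The first groups overlapped and the third stood apart. The log2 fold change of Pkp3 was 0.50 with TGF-β (SE 0.41, edgeR FDR 0.375) and 2.14 on addition of 2APB (SE 0.41, edgeR FDR 0.0216, and 0.0641 without replicate 1 of TGF-β+2APB).
Pkp4, a relative that also serves adherens junctions, was the only other plakophilin and fell at each step, by log2 fold changes of -0.43 (SE 0.08, edgeR FDR 0.00672) and -0.40 (SE 0.08, edgeR FDR 0.0215). The first call on Pkp4 was lost without either DMSO replicate (FDR 0.0694 and 0.0703). The second was lost in 6 of the 13 alternatives, with the FDR between 4.16e-06 and 0.159. Among these it was 0.0900 and 0.0914 without either DMSO replicate, 0.159 and 0.105 without either TGF-β+2APB replicate, and 0.0890 in the fit of the 4 libraries compared.

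Counted per kb of the longest transcript, the sum of the 4 plakophilins was 60.2 and 60.0 CPM per kb in DMSO. With TGF-β it was 60.9 and 61.2, with a changed makeup. With TGF-β+2APB it was 78.6 and 71.9. Pkp4 held 63.0% ± 1.05 (SD, n = 2) of it in DMSO, 45.0% ± 1.49 with TGF-β and 27.2% ± 3.09 with TGF-β+2APB. The share of Pkp2 was 36.8% ± 0.945 in DMSO, 45.4% ± 2.01 with TGF-β and 60.4% ± 1.97 with TGF-β+2APB (SD, n = 2 each). That of Pkp1 was 0.0434% ± 0.00891, 9.32% ± 0.485 and 11.4% ± 1.08 in the same order (SD, n = 2 each). The step from DMSO to TGF-β therefore held most of the appearance of Pkp1, and the step to TGF-β+2APB most of the gain of Pkp2.

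**Figure D3:**
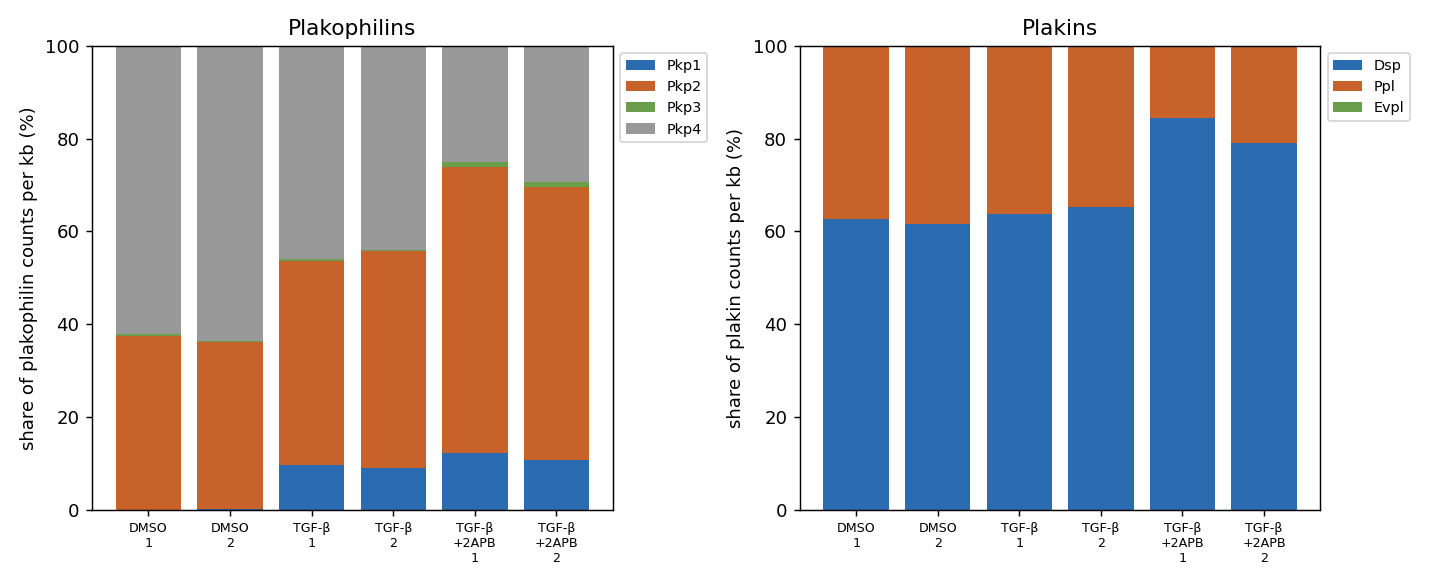
Stacked bars of the share (%) of each gene in the plakophilin counts per kb and in the plakin counts per kb of every library. Pkp4 shrinks from 63.0% in DMSO to 27.2% with TGF-β+2APB as Pkp2 and Pkp1 grow, and Dsp takes 81.8% of the plakins with TGF-β+2APB.

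Perp, a membrane protein of desmosomes and a known target of p53 and p63, was the only gene called with TGF-β whose value moved back toward DMSO with 2APB, a return that was itself not called. It occupies bases 18845020 to 18857073 of chromosome 10. Its normalized counts were 2033 and 1943 in the vehicle libraries, 1319 and 1194 under TGF-β, and 1389 and 1368 under both agents. Both treated groups lay below DMSO, and the replicates with 2APB lay narrowly above those without. Perp fell with TGF-β, its log2 fold change being -0.66 (SE 0.09, edgeR FDR 0.00245) and stood at -0.53 against DMSO with TGF-β+2APB (SE 0.09, edgeR FDR 0.00373), both called in all 13 alternatives. The change of Perp on addition of 2APB was 0.13 (SE 0.09, edgeR FDR 0.334) and was called in none of them, with the FDR between 0.0793 and 0.796. On the log2 scale this was 20.1% of the way back, and between 10.6% and 28.6% with each library left out.

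Ppl and Evpl encode periplakin and envoplakin, plakins that join desmosomes and keratin to the cornified envelope of stratified epithelia. Ppl occupies bases 5086291 to 5132421 of chromosome 16 (minus strand). Its normalized counts were 26913 and 27541 in the vehicle libraries, 12772 and 11576 under TGF-β, and 5299 and 7198 under both agents, lower at each step without overlap. The log2 fold change of Ppl was -1.16 with TGF-β (SE 0.15, edgeR FDR 0.00251) and -0.96 more once 2APB was present (SE 0.15, edgeR FDR 0.0140, and 0.0502 without replicate 2 of DMSO). Ppl and Dsp thus fell alike in the first step and moved in opposite directions in the second.
Evpl, on chromosome 11 from 116220559 to 116238077, had raw counts of 78 and 64 in the vehicle libraries, 50 and 60 under TGF-β, and 104 and 82 under both agents. Its direction was that of Dsp in both steps, but with log2 fold changes of -0.36 (SE 0.30, edgeR FDR 0.370) and 0.73 (SE 0.29, edgeR FDR 0.150) neither was called. At this depth the SE of Evpl was as large as the whole return of Dsp or nearly so.
The 3 plakins together had 154 and 156 CPM per kb in DMSO, 73.7 and 71.6 under TGF-β and 70.9 and 72.0 under both agents. With these transcript lengths their sum thus stayed at its TGF-β level on addition of 2APB, with the replicates of both groups interleaved. With no length correction both sums with 2APB lay above both with TGF-β alone, and with coding length below. The share of Dsp in the sum went from 62.1% ± 0.789 in DMSO and 64.6% ± 1.01 with TGF-β to 81.8% ± 3.77 with TGF-β+2APB (SD, n = 2 each). Sum and share are descriptions, since both rest on the values by which Dsp was chosen.

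Of the 2634 entries called lower with TGF-β, 4.40% were called higher again on addition of 2APB and 24.4% were called lower still. Their median return was -23.6% of the first change, with quartiles of -59.1% and 9.08%, where a value below 0 means a further fall. Among the desmosome genes that fell, Dsg2 lay at -33.2%, Ppl at -82.9% and Perp at 20.1%, while the 34.8% of Dsp belongs to the values it was chosen by and is not ranked. For genes that rose with TGF-β the same measure was -8.10% for Pkp1 and -212% for Pkp2, a further rise in each. The TGF-β libraries enter both steps of this measure, so it was given no test.

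**Figure D4:**
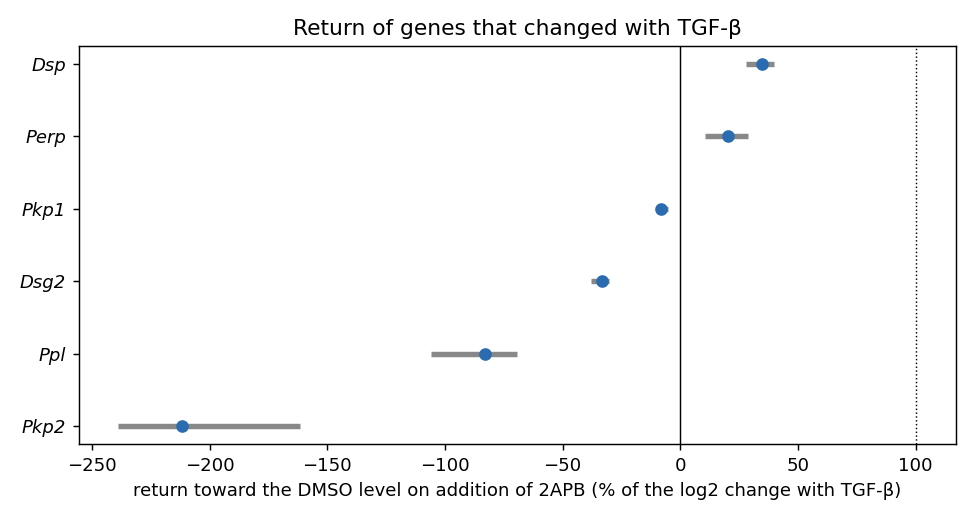
Return toward the DMSO level on addition of 2APB, as a percentage of the log2 change with TGF-β, for Dsp and the 5 called genes. Points are values from all libraries and bars the range with each library left out. Values above 0 are a return (Dsp 34.8%, Perp 20.1%) and values below 0 a further move away from DMSO.

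Genes around the desmosome were read from lists of its partners. For comparison with the counts of each list, 21.8% of all entries tested were called higher with TGF-β and 19.7% lower. On addition of 2APB the shares were 6.58% higher and 10.9% lower. The lists were not tested against these shares. Of 11 keratin genes 6 had enough counts. With TGF-β 3 were called higher and 1 lower, and on addition of 2APB 5 were higher and 1 lower. With each library left out these counts ran from 2 to 4 higher with 1 lower, and from 3 to 4 higher with 0 to 1 lower. The first had 2 higher without replicate 1 of DMSO or either replicate of TGF-β+2APB, where Krt16 was lost, and 4 without replicate 2 of TGF-β, and the second had 3 higher without either replicate of TGF-β+2APB, where Krt16 and Krt20 were lost. The simple-epithelial pair Krt8 and Krt18 rose at both steps, by log2 fold changes of 0.66 and 0.92 (edgeR FDR 0.00296 and 0.00122) and then 0.90 and 0.89 (edgeR FDR 0.00501 and 0.00589). Krt19 fell by -2.04 and then -2.05 (edgeR FDR 0.00659 and 0.0174). The second call on Krt19 was lost without replicate 1 or 2 of DMSO (FDR 0.0546 and 0.0552) and in the fit of 4 libraries (0.0515).
Of 14 cornified envelope genes 7 were tested, with 5 higher and 1 lower with TGF-β and 2 higher and 1 lower on addition of 2APB. The 1 lower with TGF-β was Sprr1a (log2 fold change -0.81, SE 0.25, edgeR FDR 0.0496), lost in 5 of the 13 alternatives, among them without replicate 1 or 2 of DMSO (FDR 0.195 and 0.138) and without replicate 2 of TGF-β (0.124). Without replicate 1 of TGF-β 2 were lower with TGF-β, Cdsn being gained. Of the 2 higher with 2APB, Lce1f (log2 fold change 0.74, SE 0.16, edgeR FDR 0.0395) was lost in 9 of the 13, including each fit with a library left out, so that 1 was left, and without replicate 1 of TGF-β 2 were lower, Ivl being gained. Ivl (involucrin), which the envelope plakins meet in that structure, rose by 2.20 with TGF-β (SE 0.11, edgeR FDR 0.000102), and Lce1g from 4 and 4 counts in DMSO to 3112 and 2768. Sprr1a fell by -2.83 when 2APB was added (SE 0.27, edgeR FDR 0.00462). Reads of the Lce and Sprr genes could be shared with near-identical relatives.
All 8 genes of other plakins and the hemidesmosome were tested, and 3 were higher and 1 lower with TGF-β. The 3 higher became 1 without replicate 1 of DMSO, where Cd151 (FDR 0.0940) and Dst (0.113) were lost, and 1 without replicate 2 of DMSO (0.144 and 0.0937). With 2APB added 0 of the 8 were called by edgeR, 3 had an unadjusted p under 0.05, and DESeq2 called 1, Itgb4, lower. Library size scaling also called Itgb4 lower (FDR 0.0440), and without replicate 2 of TGF-β 3 were lower, Plec, Itgb4 (FDR 0.00577) and Cd151 (0.0291). The integrin chain Itgb4 was the one that fell with TGF-β (log2 fold change -0.75, SE 0.10, edgeR FDR 0.00245).
For the adherens junction 8 of 9 genes were tested, with 3 higher and 3 lower with TGF-β. The calls on Ctnnd1 and Arvcf were lost without either DMSO replicate. That on Ctnnd1 was also lost in the fit of 4 libraries and without either TGF-β+2APB replicate. Ctnna1 was gained as lower by DESeq2, with RLE or library size scaling, and without either TGF-β replicate. Cdh1 (E-cadherin) fell by -0.78 (SE 0.13, edgeR FDR 0.00550) and Ctnnb1 (β-catenin, the nearest relative of Jup) by -0.81 (SE 0.07, edgeR FDR 0.000700), while Cdh2 (N-cadherin) rose by 0.86 (SE 0.10, edgeR FDR 0.00187). With 2APB added 1 gene was higher, Cdh2, by 0.63 (SE 0.10, edgeR FDR 0.0157), and 1 lower, Vcl, by -0.31 (SE 0.07, edgeR FDR 0.0379). The call on Cdh2 was lost without replicate 1 or 2 of DMSO (FDR 0.0584 and 0.0590), without replicate 1 of TGF-β+2APB (0.0870) and in the fit of 4 libraries (0.0559), and that on Vcl in 7 of the 13 alternatives, with the FDR between 0.000829 and 0.266. For Vcl it was 0.132 and 0.134 without either DMSO replicate and 0.123 and 0.266 without either TGF-β+2APB replicate. Other calls were gained. Cdh1 was lower on addition of 2APB by DESeq2 (FDR 0.00792), with library size scaling (edgeR FDR 0.0409) and without replicate 2 of TGF-β (0.00819), and Ctnnb1 was lower with library size scaling (0.0482) and without replicate 1 or 2 of TGF-β (0.0431 and 0.00362). The counts in this step thus ran from 0 higher and 0 lower without either DMSO replicate or without replicate 1 of TGF-β+2APB to 2 higher and 4 lower without replicate 2 of TGF-β.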

How the data were processed

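Per the paper's methods and the submitters' processing notes, the authors sequenced 50-base single-end reads of oligo-dT selected RNA, checked them with FastQC 0.11.2, aligned them with TopHat2 2.0.13 and counted them on genes with featureCounts. The sources differ on the genome: the submitters' notes name mm10 and the paper's methods a human build, while the deposited gene symbols are mouse. The deposited values are raw counts per gene. The annotation, strand setting and treatment of multi-mapped reads are not given in the sources used here. Every deposited count was even, so counts may have been doubled, and halved counts were an alternative. Counting floors cover counting error only.

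In R 4.3.3, edgeR 4.0.16 scaled libraries by TMM, kept entries averaging 20 or more normalized counts, and fitted the 3 groups in 1 quasi-likelihood model (FDR over all entries). Normalized counts are counts over the effective library size, scaled to the mean library total. SE is the log2 fold change over the square root of F. DESeq2 1.42.0 was an alternative. Lengths came from GENCODE M21 (GRCm38). The test was checked on simulated data. Members and lists were chosen with earlier results of these data known. All 10 members are named. Up to 4 genes of each partner list could be named, the largest called changes averaging 100 or more normalized counts. Dsg1c and the counts of low cadherins were named after their values were seen. So were Krt16, Krt20, Cdsn, Plec, Ctnna1, Ctnnd1 and Arvcf, whose calls were lost or gained under an alternative. The alternatives were DESeq2, RLE or library size scaling, no filter, halved counts, a replicate block, the 4 libraries compared, an FDR of 0.01, each library left out, and for shares the coding length or no length.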

Additional observations from a re-analysis of the deposited data

How the results depend on the processing

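The count of genes called on addition of 2APB, 6 of 8, was the least stable. It was 3 in the fit of the 4 libraries compared, 1 at an FDR of 0.01, and 2 to 6 with each library left out, where a group of 1 library is assumed to vary like the others. Over all entries that comparison gave 2335 calls by edgeR, 3696 by DESeq2, 860 with the 4 libraries, 601 at an FDR of 0.01 and 834 to 5405 with a library left out. The counts for the other comparisons stayed within 4 to 5 and 6 to 7 in all 14 alternatives each, and over all entries TGF-β against DMSO gave 5548 calls, 3369 at an FDR of 0.01 and 2753 to 7640 with a library left out, and TGF-β+2APB against DMSO 7044 and 4354 to 9006. Whether same-numbered libraries were run together is not stated. Their deviations correlated at 0.156, -0.479 and -0.247 over 13355 entries. These values cannot decide it, since each rests on 1 difference between replicates per group. With the replicate block the counts were 5, 5 and 7, 1343 entries were called on addition of 2APB, and the calls on Dsg2 (FDR 0.0532), Pkp4 (0.0591) and Vcl (0.0694) in that comparison were lost. The return was 28.0% to 39.9% for Dsp and -10.1% to -5.39% for Pkp1 with a library left out. Changes that were not called reversed in direction. Jup with TGF-β ran from -0.23 to 0.045, positive without replicate 2 of TGF-β. On addition of 2APB, Cd151 was 0.075 without replicate 1 of TGF-β, Dst was -0.0013 with library size scaling, -0.071 without replicate 1 of TGF-β, -0.033 without replicate 1 of TGF-β+2APB and up to 0.15 without replicate 2 of TGF-β, and Dsg1c was 0 without replicate 2 of TGF-β and -4.13 without replicate 1. The order of groups in the class sums changed with the length used. On addition of 2APB the plakin sum rose with no length correction and fell with coding length. With TGF-β the plakophilin sum fell with no length correction and rose with coding length. Shares moved with the length used, but the order of groups held. In DMSO, TGF-β and TGF-β+2APB, with no length correction, Pkp2 held 26.9%, 34.5% and 49.3%, Pkp4 72.9%, 54.0% and 35.0%, and Dsp 71.7%, 73.8% and 87.3%. With coding length Pkp2 held 35.5%, 41.5% and 54.9%. Pkp4 then held 64.2% and 43.4% in DMSO and TGF-β, and Dsp 60.6% and 63.1%. Pkp1 held 0.0732%, 14.9% and 18.1% with coding length, and 11.3% and 14.9% in the treated groups with none. Dsg2 held 99.6% and 99.9% in DMSO and TGF-β with none. With 2 replicates a group, no outlier test was possible, and depth limited Dsc2, Pkp3 and Evpl. The cause of these changes was not tested.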
